A study of Mus musculus with 4 samples.

Results

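The regions described here are clusters of open chromatin that crowd around single genes in mouse fetal liver. The authors' 4 peak lists were merged on chromosomes 1 to 19 wherever peaks shared at least 1 bp, which gave 54244 regions. Of these, 26855 had a peak in all 4 libraries and are called shared regions. Each shared region was given to the protein-coding gene with the nearest boundary, meaning the nearest start or end, within 100 kb of its summit. This placed 25928 shared regions at 13410 genes. A gene with 10 or more shared regions is called a cluster gene: there were 85, and their 962 regions are the members. They are 0.634% of the genes with a shared region and hold 3.71% of the shared regions near genes. Members were chosen by measured values, namely the presence of a peak in all 4 lists, the fold that sets each summit, and position, so the number of regions per gene is a description without a test. The median gene had 1 shared region and the highest number was 16. Just inside the limit, 36 genes had exactly 10 regions, among them Sertad2, St7 and Kif2a. Just outside it, 39 genes had 9, among them Map3k1, Trim27 and Sox6. No histone mark or reporter assay was used here, so the members are open regions, and whether they act as enhancers was not measured.

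Open chromatin of mouse fetal liver cells was measured with ATAC-seq, which tags accessible DNA by transposase insertion. Of the 4 libraries, 2 came from wild-type (WT) livers and 2 from Hemgn knockout (KO) livers, all at embryonic day 14.5. The product of Hemgn, hemogen, is found in the nucleus of haematopoietic cells. The labels give neither the kind of KO allele nor the strain. They name no sort, so the cells are taken to be a mixture of liver cells. Nothing says that replicates came from separate litters, so the spread between libraries may be technical.

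A gene can be switched on by its promoter together with several distant stretches of open DNA, called enhancers, that bind transcription factors. Genes that set the identity of a cell often carry many such stretches side by side. Fetal liver at this age is mainly an organ of red cell formation, driven by GATA1, TAL1, KLF1 and their cofactors. Hemogen acts in these cells, and the series title pairs it with BRG1, the ATPase of the BAF complex that moves nucleosomes.

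Peak lists carry no read depth, so the depth behind each region is unknown. On chromosomes 1 to 19 the longest list was that of WT replicate 1 with 46905 peaks, followed by Hemgn KO replicate 2 with 42176, Hemgn KO replicate 1 with 34703 and WT replicate 2 with 33428. The deposited fold of a peak is the authors' enrichment over the background of its own library. It was therefore turned into a rank percentile among the 26855 shared regions of the same library, from near 0 for the weakest to 100 for the strongest. The same regions were ranked in every library, and a rank is a standing among open regions and not an amount of accessibility. Across the 962 member regions, Spearman correlations between libraries ran from 0.863 to 0.924, and the lowest was between WT replicate 2 and Hemgn KO replicate 1. The highest was between WT replicate 1 and Hemgn KO replicate 2, which had the longest lists. It was above the correlation between the WT replicates (0.911) and between the KO replicates (0.890), so libraries of 1 genotype were not the most alike.

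The gene starts of the clusters are shown first, since they are the part of each cluster for which sequence was at hand. RefSeq windows of GRCm38.p6, from 250 bases before to 50 after a start, were matched by symbol for 67 of the 85 cluster genes. The 4 genes with the most regions come first, then 3 genes of red cell formation that were chosen after their values were seen, and where a gene has several windows the 1 under its strongest shared region is shown. Capitals mark AGATAA or TGATAA, which GATA factors can bind, and GGGCGGG, the GC box, on either strand.
Nol4l: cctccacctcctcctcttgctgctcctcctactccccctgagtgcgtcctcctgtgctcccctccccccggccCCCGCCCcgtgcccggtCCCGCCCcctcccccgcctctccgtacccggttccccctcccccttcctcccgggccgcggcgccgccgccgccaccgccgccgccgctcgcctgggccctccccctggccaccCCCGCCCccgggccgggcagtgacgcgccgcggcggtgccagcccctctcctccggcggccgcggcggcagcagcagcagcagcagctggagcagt
Zfp217: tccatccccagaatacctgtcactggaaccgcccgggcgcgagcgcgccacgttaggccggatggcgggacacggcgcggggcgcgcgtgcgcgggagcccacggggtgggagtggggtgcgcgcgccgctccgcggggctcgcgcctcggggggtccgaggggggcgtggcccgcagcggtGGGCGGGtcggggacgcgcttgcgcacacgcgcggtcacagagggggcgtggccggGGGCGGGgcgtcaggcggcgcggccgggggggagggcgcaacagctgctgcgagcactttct
Med13l: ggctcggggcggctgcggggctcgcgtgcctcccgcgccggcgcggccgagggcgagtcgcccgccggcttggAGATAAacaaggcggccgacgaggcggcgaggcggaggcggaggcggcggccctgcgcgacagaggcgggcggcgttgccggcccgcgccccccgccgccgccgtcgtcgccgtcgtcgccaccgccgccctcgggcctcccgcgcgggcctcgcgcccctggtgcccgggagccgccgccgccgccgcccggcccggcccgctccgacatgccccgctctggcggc
Rreb1: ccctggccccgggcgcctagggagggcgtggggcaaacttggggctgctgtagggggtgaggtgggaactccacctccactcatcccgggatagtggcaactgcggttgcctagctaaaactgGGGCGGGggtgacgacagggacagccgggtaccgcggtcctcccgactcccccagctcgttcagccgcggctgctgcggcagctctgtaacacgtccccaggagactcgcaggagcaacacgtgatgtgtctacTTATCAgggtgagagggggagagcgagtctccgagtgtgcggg
Zfpm1: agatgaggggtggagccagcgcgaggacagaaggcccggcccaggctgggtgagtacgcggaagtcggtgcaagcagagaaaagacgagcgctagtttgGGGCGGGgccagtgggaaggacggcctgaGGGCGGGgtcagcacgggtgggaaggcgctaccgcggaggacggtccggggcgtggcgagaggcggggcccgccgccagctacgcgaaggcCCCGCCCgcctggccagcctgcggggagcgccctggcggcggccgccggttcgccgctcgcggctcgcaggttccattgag
Slc2a1: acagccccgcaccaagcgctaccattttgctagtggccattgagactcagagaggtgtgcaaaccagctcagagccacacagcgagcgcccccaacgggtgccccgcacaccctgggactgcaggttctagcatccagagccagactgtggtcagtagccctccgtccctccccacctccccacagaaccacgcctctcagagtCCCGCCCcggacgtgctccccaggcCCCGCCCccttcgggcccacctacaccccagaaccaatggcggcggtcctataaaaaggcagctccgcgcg
Epb41: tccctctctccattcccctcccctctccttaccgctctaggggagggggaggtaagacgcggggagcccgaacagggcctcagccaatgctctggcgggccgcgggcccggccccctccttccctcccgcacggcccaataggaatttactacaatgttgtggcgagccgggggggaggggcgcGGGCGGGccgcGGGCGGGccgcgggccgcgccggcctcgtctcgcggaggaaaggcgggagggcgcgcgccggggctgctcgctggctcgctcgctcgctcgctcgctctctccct
Their places are Nol4l chr2:153444430-153444729 (-), Zfp217 chr2:170131171-170131470 (-), Med13l chr5:118560469-118560768 (+), Rreb1 chr13:37825788-37826087 (+), Zfpm1 chr8:122281891-122282190 (+), Slc2a1 chr4:119108495-119108794 (+) and Epb41 chr4:132049029-132049328 (-). All 7 lie over a shared region. The Med13l window holds 1 AGATAA and 61 CG pairs, the Rreb1 window 1 TGATAA on the reverse strand and 21 CG pairs, and the windows of Zfpm1, Slc2a1 and Epb41 hold neither GATA hexamer. AGATAA or TGATAA was in 8 of 67 windows of cluster genes (11.9%) and in 15.7% of the windows of all 16456 protein-coding genes matched. Among windows that lie over a shared region the order was the other way, with 12.7% for cluster genes and 8.07% for other genes. GGGCGGG was in 44 of 67 (65.7%), against 35.7% of all windows and 52.4% of the windows of other genes that lie over a shared region. The median window held 28 CG pairs, against 22 for other genes' windows over a shared region and 15 over all genes. A shared region covered the chosen window of 63 of 67 cluster genes (94.0%), against 60.3% of all genes. Having shared regions is how cluster genes were chosen, so this share is a description. A match is a run of letters and shows no binding.

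Most of a cluster lay away from these starts. Within 1 kb of any protein-coding gene boundary were 83 of 962 member regions (8.63%), against 43.9% of the 24966 shared regions at genes with fewer regions. Such a region was present in 71 clusters. A gene has only a start and an end, so a gene with many regions can have only a small share of them there. Choosing genes by their number of regions therefore itself lowers this share, and the contrast is a description and not a separate trait of clusters. By the summit, 568 member regions (59.0%) were inside the gene that names the cluster, 20 (2.08%) inside another protein-coding gene and 374 (38.9%) between genes. The same shares at other genes were 65.6%, 4.86% and 29.6%. Of 304 member regions outside their gene where the strand was known, 211 (69.4%) lay upstream of it, against 59.8% at other genes. Cluster genes were long and had much DNA around them: they had a median length of 114 kb and were nearest to a median of 180 kb, against 23.7 and 50.1 kb for genes with 1 to 9 regions. Per 100 kb of this DNA the median cluster gene had 6.35 shared regions, with a range from 2.78 to 15.8. Genes with 5 to 9 regions had 5.11, genes with 1 to 9 had 3.36, and the whole table had 1.67. Choosing genes by their number of regions itself favours greater length, more surrounding DNA and higher density, so these values are descriptions.

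**Figure D1:**
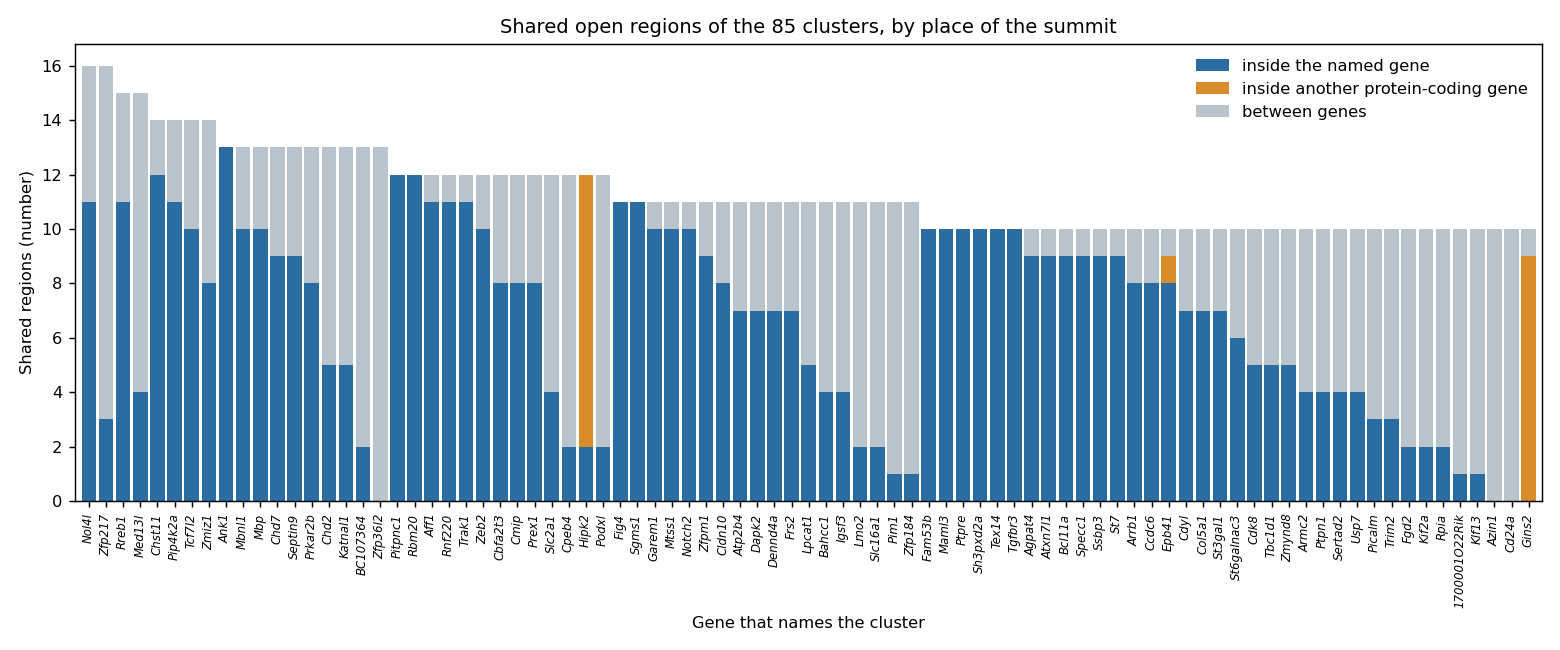
Number of shared regions (y axis) of each of the 85 cluster genes (x axis), stacked by whether the summit is inside the named gene, inside another protein-coding gene or between genes. Ank1 has all 13 regions inside the gene, Zfp36l2 has 13 between genes, and Gins2 and Hipk2 have 9 and 10 inside a neighbour.

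Clusters differed in form. In 51, more than 50% of the regions were inside the named gene, and the median length of these genes was 153 kb. In 29, most regions were between genes around a shorter gene, with a median of 48.6 kb. In 2, at Gins2 and Hipk2, most lay inside a neighbouring gene, and in 3, at Cdk8, Zmynd8 and Tbc1d1, no place held more than 50%. The wholly intragenic form had 11 genes, and Ank1 with 13 regions, Pitpnc1 with 12 and Rbm20 with 12 were the richest. No region lay inside the named gene at Zfp36l2 (13 regions), Cd24a, Azin1 or Gins2 (10 each). At Gins2, a subunit of a DNA replication complex, 9 of 10 regions were inside Gse1, a transcription coregulator gene. At Hipk2, a nuclear kinase gene, 10 of 12 were inside Tbxas1, the gene of thromboxane synthase. The name of a cluster is therefore that of the nearest boundary, and no contact between a region and a gene was measured.

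Neighbouring summits of a cluster were a median of 9.50 kb apart, and 53.2% of the gaps were under 10 kb. Genes with 5 to 9 regions had a median gap of 10.4 kb. Whole clusters spanned from 49.1 kb at Zfp184 to 417 kb at Maml3, a Notch coactivator gene, with a median of 144 kb. Per 100 kb of span, Maml3 had 2.40 regions, the lowest density, and its widest gap was 263 kb. The 6 densest were Zfp184 (22.4), Tex14 (19.9), Zfpm1 (17.5), Pim1 (16.7), BC107364 (14.7) and Zfp36l2 (14.1).

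**Figure D2:**
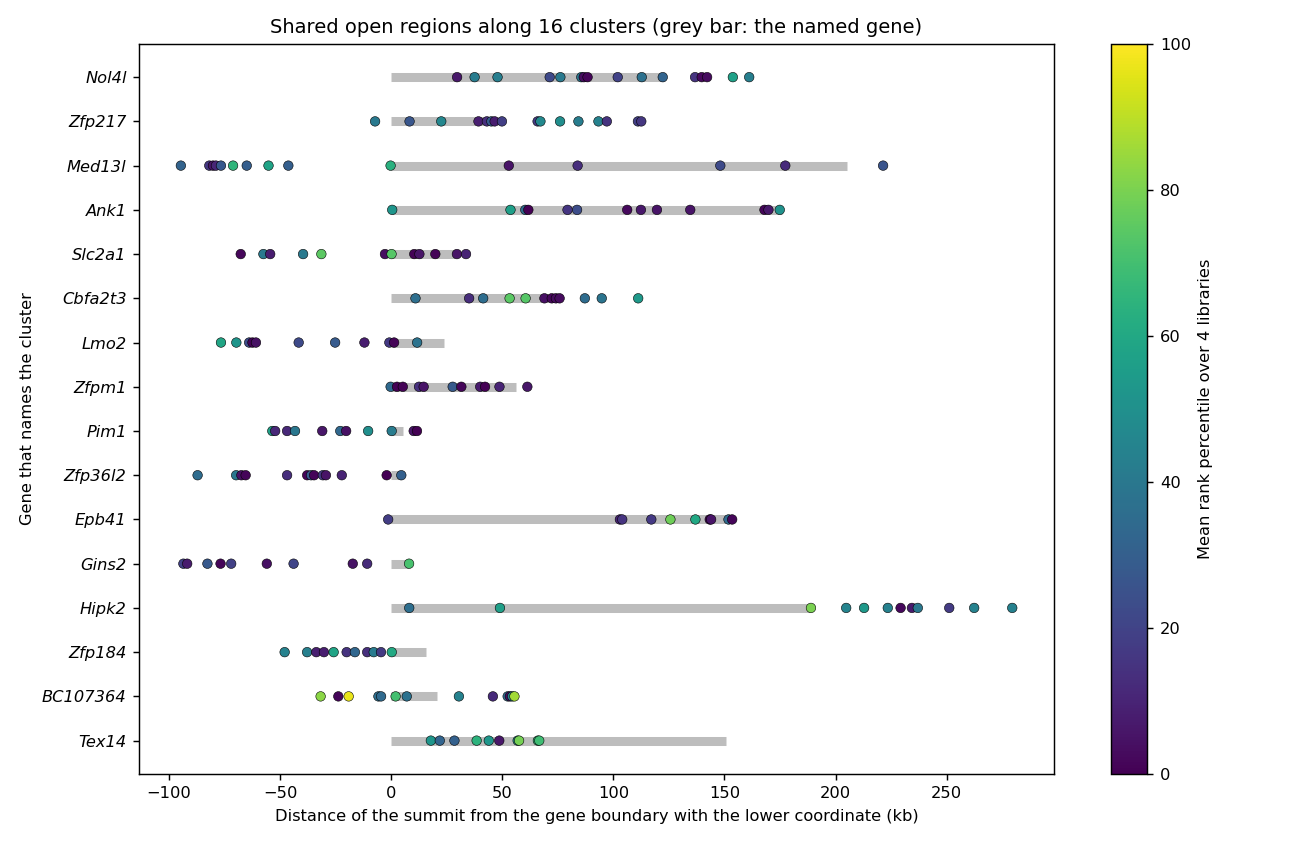
Summits of shared regions (points) along 16 clusters, in kb from the gene boundary with the lower coordinate, with the named gene as a grey bar and colour for the mean rank percentile over the 4 libraries. The regions of Ank1 and Zfpm1 sit along the gene, and those of Pim1 and Zfp36l2 mostly beside a gene of 5.33 and 4.02 kb. Those of Gins2 lie mostly to 1 side of the gene, with the strongest (mean rank 70.8) just past its other end.

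Among lists of known genes, erythroid regulators and red cell membrane genes had the highest shares of clusters. Of 20661 protein-coding genes on these chromosomes, 0.411% were cluster genes and 4.24% had 5 or more shared regions. Of 27 erythroid transcription factors and cofactors, 4 were cluster genes (Cbfa2t3, Zfpm1, Lmo2 and Bcl11a) and 15 (55.6%) had 5 or more regions. Of 23 red cell membrane and skeleton genes, 3 were cluster genes (Ank1, Slc2a1 and Epb41) and 12 (52.2%) had 5 or more. Their median genes had 6 and 5 regions. Erythropoietin, KIT and stress signalling genes gave 2 clusters of 27 (Zfp36l2 and Pim1), and other chromatin and transcription coregulators 3 of 28 (Med13l, Zmiz1 and Chd7). Heme synthesis and iron genes had 0 clusters in 23 genes and a median of 2 regions, with Steap3 highest at 5. The BAF and PBAF list had none in 26, with Bicra highest at 6. Stem and progenitor genes had none in 25, although Runx3 had 9 and Runx1 had 8.

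Lists for the other cells of the liver had no cluster. Macrophage genes had no shared region at 12 of 20 genes, with Fcgr1 highest at 6, and granulocyte and mast cell genes at 13 of 20. Megakaryocyte genes had a median of 1 region in 17 genes. Lymphocyte genes had 1 in 20, with Bach2 highest at 8, and hepatocyte genes 1 in 24, with Hnf4a highest at 6. Endothelial and stellate cell genes had a median of 1.5 in 20, with Nr2f2 highest at 6. The lists were written with results of these data known, and their sizes are small, so these shares are descriptions. Fewer cells of a type and less open DNA per cell cannot be told apart in a mixture of cells. Cell cycle genes (24), autophagy and organelle clearance genes (18) and housekeeping genes (14) had no cluster either. Of the cell cycle genes, 20.8% had 5 or more regions, with Mki67 highest at 9.

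**Figure D3:**
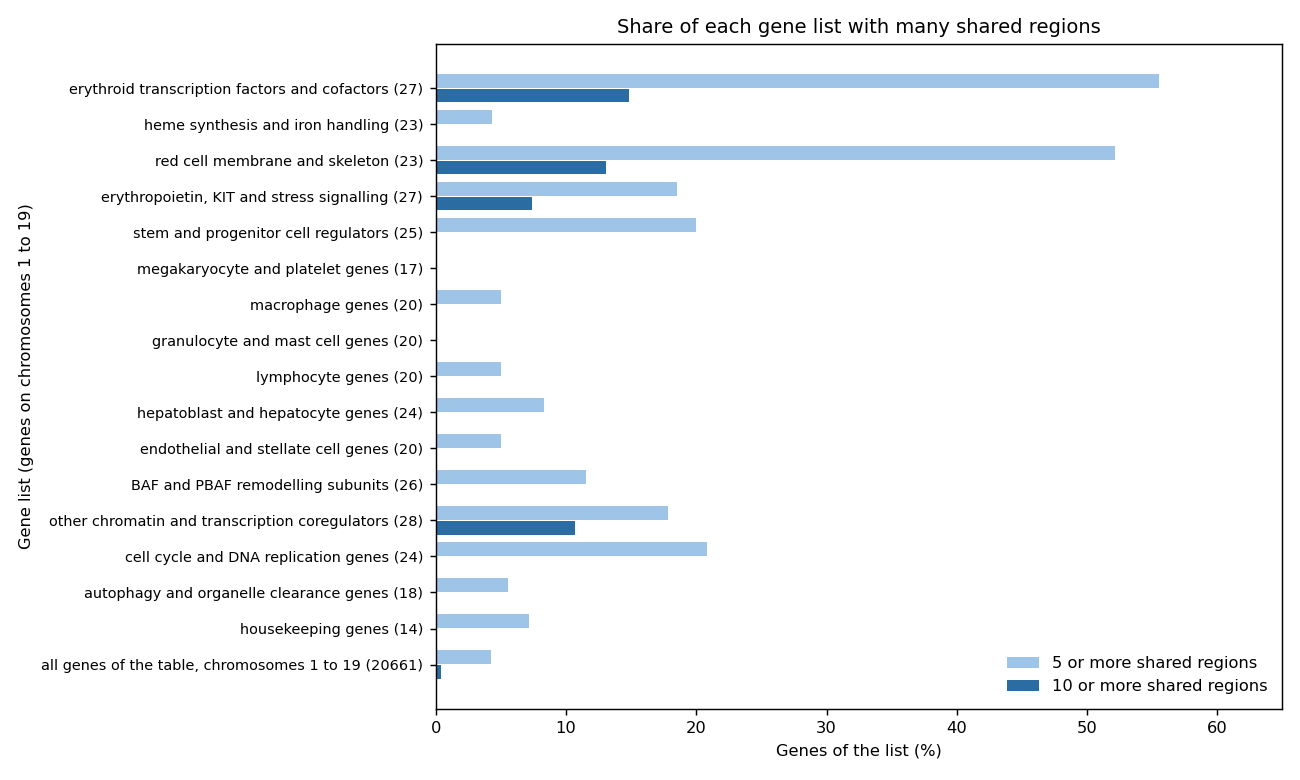
Share of the genes of each list described here (x axis, %) with 5 or more (light bars) and with 10 or more (dark bars) shared regions, with the number of genes on chromosomes 1 to 19 in brackets. Erythroid factors and red cell membrane genes reach 55.6% and 52.2% at 5 or more, and all genes 4.24%.

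The 4 erythroid regulators differed in the strength of their regions. Zfpm1 encodes FOG-1, the cofactor that GATA1 needs. Its 11 regions ran over 62.9 kb (chromosome 8, 122281059 to 122344006), 9 of them inside the gene. The mean rank of the Zfpm1 regions was 11.3 and 11.9 in WT and 8.31 and 7.47 in KO, the lowest of any cluster. The genotypes did not overlap, but the difference did not pass the test given below (limma adjusted p = 0.523). The strongest Zfpm1 region, at the gene start, ranked at 31.9 and 39.1 in WT and 34.1 and 30.5 in KO.

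Cbfa2t3 encodes ETO2, a corepressor of the TAL1 complex, and lies 292 kb from the Zfpm1 cluster. It had 12 regions over 101 kb (chromosome 8, 122635636 to 122736716), with mean ranks of 32.2 and 34.6 in WT and 27.2 and 29.6 in KO. The strongest, inside the gene and 20.9 kb from its boundary, ranked at 74.2 and 81.4 in WT and at 70.9 and 71.3 in KO, and the weakest at a mean of 1.48. Both KO means lay below both WT means (limma adjusted p = 0.563). The same order held at 44.7% of all cluster genes and 25.9% of genes with 3 or more regions.

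Lmo2 encodes the adaptor that joins TAL1 to GATA factors. Of its 11 regions over 90.4 kb (chromosome 2, 103880941 to 103971385), 9 were between genes. The strongest lay farthest out, 76.6 kb from the gene, at ranks of 50.7 and 61.9 in WT and 67.1 and 56.2 in KO. Mean ranks of 24.7 and 19.3 in WT and 23.4 and 24.7 in KO overlapped. Bcl11a, a repressor of fetal globin genes in humans, had 10 regions over 116 kb. Its mean ranks of 20.3 and 22.7 in WT and 18.3 and 19 in KO did not overlap (limma adjusted p = 0.669).

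Among membrane genes, Ank1 encodes ankyrin, the anchor between band 3 and spectrin. All 13 of its regions were within the gene, over 176 kb (chromosome 8, 22974200 to 23150305). Mean ranks were 18.3 and 21.1 in the WT and 21.2 and 19.2 in the KO libraries, with overlap between the genotypes. The strongest region, 53.7 kb into the gene, ranked at 45.4 and 60.5 in WT and 62.7 and 55.1 in KO, while the weakest averaged 0.215. Epb41 encodes protein 4.1, which ties spectrin to actin. It had 10 regions over 158 kb (chromosome 4, 131920149 to 132077695), 9 of them gathered at 1 side of a gap of 104 kb. Its strongest was the region under the start printed above, which is 1 of 3 RefSeq starts and lies 26.3 kb inside the gene, at 76.1 and 75.3 in WT and 77.2 and 82.7 in KO. Slc2a1 encodes the glucose transporter GLUT1. Of its 12 regions over 102 kb (chromosome 4, 119040921 to 119142665), 8 were between genes, and the strongest was 31.4 kb away at ranks of 69.4, 76.7, 80.7 and 72.3 in WT replicates 1 and 2 and KO replicates 1 and 2. The start printed above was nearly as high, at 65.7, 74.7, 78.4 and 76.3.

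Signalling genes had short genes with regions strung out to 1 or both sides. Zfp36l2, which encodes an mRNA decay factor of early erythroid progenitors, is 4.02 kb long and had 13 regions over 92.5 kb (chromosome 17, 84096368 to 84188873). Their mean ranks were low, at 15.7 and 14.8 in WT and 14.8 and 12 in KO, the genotypes overlapped, and the strongest region, 69.8 kb away, averaged 39.6. Pim1, a kinase gene switched on by JAK-STAT signals, is 5.33 kb long and had 11 regions over 66.0 kb (chromosome 17, 29436839 to 29502861). Mean ranks were 22.5 and 22.8 in the WT and 24.7 and 24.5 in the KO libraries, with both KO values above both WT values. This cluster began 3.0 kb from the end of that of Fgd2, whose 10 regions ranked at means of 30.0 and 26.8 in WT and 30.8 and 26.8 in KO. No other pair of clusters was so close.

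The most regions were at Nol4l, Zfp217, Med13l and Rreb1. Nol4l and Zfp217, a zinc finger gene, had 16 regions each. At Nol4l (chromosome 2, 153436498 to 153569365), 11 of them were inside the gene, and mean ranks were 25.3 and 25.9 in the WT and 26.7 and 23.3 in the KO libraries. At Zfp217 (chromosome 2, 170101116 to 170221383), 13 were between genes, with means of 26.8, 26.5, 29.8 and 26.5 in the same order. No region of Zfp217 averaged above 49. Med13l, of the Mediator complex, and Rreb1, a Ras-responsive zinc finger gene, had 15 each. The Med13l regions lay over 318 kb (chromosome 5, 118464534 to 118782041), 11 of them between genes, and ranked at means of 28 and 27.2 in WT and 30.4 and 25.3 in KO. Those of Rreb1 ranked at 26.3 and 21.1 in WT and 24.5 and 23.4 in KO. In these 4 clusters the WT and KO libraries overlapped.

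Pip4k2a, a phosphoinositide kinase gene, Tcf7l2, a Wnt effector, Zmiz1, a coactivator of the PIAS type, and Chst11, a chondroitin sulfotransferase gene, had 14 each. Their mean ranks over the 4 libraries were between 25.7 and 37.5. Of these 4, only Pip4k2a (37.6 and 42.2 in WT, 34.9 and 35.5 in KO) and Chst11 (27.5 and 29.5 in WT, 24.2 and 26.1 in KO) had genotypes that did not overlap. With 13 regions and the highest median ranks of that number came Katnal1, of the katanin family, the splicing gene Mbnl1, the remodeller gene Chd2 and Prkar2b, a subunit of protein kinase A. Chd7, another remodeller gene, also had 13, with means of 29.5 and 30.0 in WT and 28.3 and 25 in KO. Dennd4a had 11 (39.1, 40.8, 33.6 and 34.2) and Tbc1d1 had 10 (31.6, 33.2, 30.3 and 28.8).

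In 3 dense clusters most regions lay near genes that do not code for protein. At Zfp184, 10 of 11 regions were within 1 kb of a transfer RNA (tRNA) gene, and 16 tRNA genes lay in the span of 49.1 kb (chromosome 13, 21896658 to 21945756). At BC107364, 7 of 13 regions were within 1 kb of a tRNA gene and 4 within 1 kb of a small nuclear RNA (snRNA) gene. At Tex14, 8 of 10 regions were near an snRNA gene, and all 10 were inside Tex14. These 3 hold 17 of the 18 member regions near a tRNA gene, and they are 3 of the 5 densest. tRNA genes are read by RNA polymerase III from promoters inside the gene, among them the B box, whose core is TTCGA. Near a tRNA gene were 1.87% of member regions and 0.648% of all shared regions, and near an snRNA gene 1.25% and 0.223%. Near-identical copies of such genes can share reads, and the authors' treatment of them is not stated in the labels.

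The outermost region of the Zfp184 cluster (chromosome 13, 21896658 to 21897526) lies within 1 kb of a tRNA gene and holds the miRNA hairpin Mir1983. The hairpin is printed here since the region had the highest KO minus WT difference, with UUCGA in capitals. RefSeq places it at chr13:21896918-21897049 (-) in GRCm38.p6.
Mir1983: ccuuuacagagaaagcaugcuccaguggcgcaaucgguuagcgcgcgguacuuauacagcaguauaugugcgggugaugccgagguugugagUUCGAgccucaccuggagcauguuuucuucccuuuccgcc
This region ranked at 34.0 and 14.4 in WT and at 62.0 and 66.4 in KO. Its difference of 40 percentile points (SE 8.89) was the highest of the member regions but did not pass the test given below (limma, adjusted p = 0.579), and it was picked out after its values were seen. Over the whole cluster the mean ranks were 30.1 and 30.8 in the WT and 31.8 and 31.5 in the KO libraries. The gap between the WT replicates averaged 9.18 points per region at Zfp184, against 5.52 at Tex14 and 5.96 at BC107364, and the gap between the KO replicates 6.06, 10.1 and 6.11 in the same order.

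Cluster regions ranked low among the shared regions of each library. The median rank of the 962 regions was 30.8 and 31.5 in WT and in KO 29.2 and 29.4, compared with 51.5 to 51.7 for regions of genes with fewer than 10. Between 40.9% and 44.6% were in the lowest 25% of ranks and between 4.78% and 6.03% in the highest 25%. Ranks differed by place. At boundaries the medians of cluster regions were 53.7 to 56.7 and of other genes 73.0 to 74.4. Inside genes they were 25.3 to 27.8 against 34.3 to 35.8, and between genes 31.3 to 33.4 against 36.1 to 38.8. Regions were a median of 1367 bp wide at boundaries of cluster genes (1112 bp at other genes), 831 bp inside genes (835) and 781 bp outside (772). No test was made, since regions of 1 library are not replicates.

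**Figure D4:**
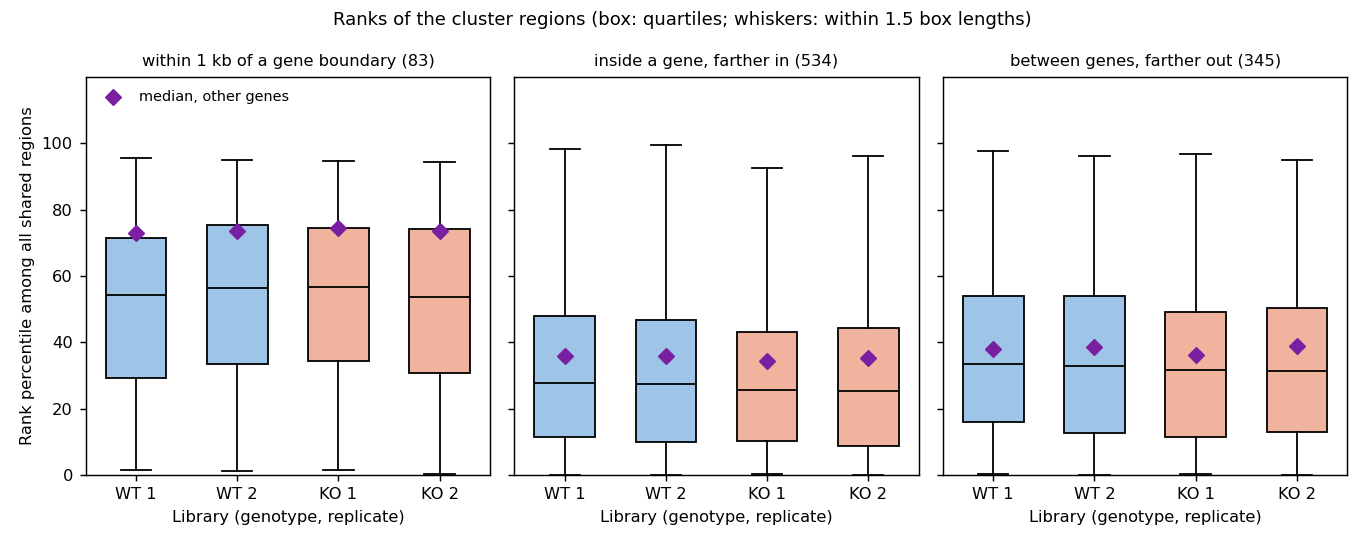
Rank percentile among all shared regions (y axis) of member regions in each library (x axis), by place, with boxes for quartiles and diamonds for the median of regions at genes with fewer than 10. In all 3 places and all 4 libraries the diamond lies above the middle line of the box.

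Strength was uneven within clusters. The strongest region of a cluster had a median rank of 72.9 and the weakest a median of 4.67. In 68 of 85 clusters at least 1 region averaged below 10, and in 10 at least 1 averaged above 90. The strongest region was at a gene boundary in 32 clusters, inside a gene in 24 and between genes in 29. The highest of all was inside Cdk8, a Mediator kinase gene, at 98.3 and 99.5 in WT and 97.9 and 99.1 in KO. BC107364 followed with 97.7, 96.3, 96.9 and 95.1, then Ptpn1, a tyrosine phosphatase gene, with 96.9, 94.0, 92.5 and 96.3. Cluster means ran from 9.74 at Zfpm1 to 52.4 at Cpeb4.

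The study asks how the loss of hemogen changes open chromatin, and for these clusters 0 differences passed the test. Ranks were compared by limma over all 26855 shared regions and, as gene means, over the 2822 genes with 3 or more, with Benjamini-Hochberg adjustment. In the region fit 0 were called KO lower and 0 KO higher (0% each), and the lowest adjusted p of a member was 0.579. In the gene fit 0 were called in either direction (0% each), and the lowest adjusted p of a cluster gene was 0.453. At an unadjusted limma p under 0.05 were 283 of 2822 genes, of which 165 were KO lower, and 2 of 85 cluster genes, St7 and Cpeb4, both KO lower. Among member regions the same limit took in 58 KO lower and 19 KO higher, against 1153 and 1113 of all shared regions. The median standard error of a KO minus WT difference was 2.80 points for a cluster gene and 5.94 points for a member region with 2 libraries a genotype. Ranked by the deposited -log10 q in place of fold, limma called 12 of the 26855 regions, 1 of them a member. It was the region at the boundary of Kif2a, a kinesin gene, with a difference of 9.71 (SE 0.982, limma adjusted p = 0.0354), higher in KO. Most of the 12 lay at gene boundaries. Ranked by fold, the Kif2a region stood at 55.1 and 65.1 for the WT pair, then 67.6 and 66.8 for the KO pair. The Kif2a cluster as a whole went the other way by fold, with a difference of -4.38. Its WT libraries averaged 49.8 and 48.9, above the KO averages of 45.7 and 44.2.

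The values leaned to lower KO ranks all the same. The median KO minus WT difference of the 962 regions was -1.43 percentile points (quartiles -6.07 and 2.48), against -0.0130 over all shared regions, and 581 (60.4%) had a lower KO mean, against 50.2%. Ranking over all shared regions fixes their mean difference in advance, so the values over all of them are a baseline and not a result. Away from boundaries, 61.5% of member regions had a lower KO mean, against 54.5% at genes with fewer regions. Averaged over libraries, the median member rank was 31.2 ± 0.445 for WT and 29.3 ± 0.114 for KO (SD over n = 2 libraries each). Both KO libraries were below both WT libraries at 247 member regions (25.7%; 20.5% of all shared regions) and above at 131 (13.6%; 19.3%). Of 85 cluster genes, 63 (74.1%) had a KO mean below the WT mean. The same held for 57.3% of genes with 3 or more regions and 64.1% of genes with 5 to 9. In 38 (44.7%) both KO means were below both WT means, against 25.9% of genes with 3 or more regions, and in 4 (4.71%) both were above, against 15.2%. The count above depended on single libraries: with 3 libraries left, where non-overlap is easier to meet, it was 20 without Hemgn KO replicate 2, 11 without Hemgn KO replicate 1 and 12 without either WT replicate. It was also 9 of 82 in the upper 75% of ranks, and the share over all genes was not computed in any of these runs. With all 4 libraries and all ranks, the shares moved with the number of regions. Both KO below both WT held for 22% of genes with 3 or 4 regions and 33.4% of genes with 5 to 9. The median difference of gene means was -0.368, -1.22 and -2.10 points for 3 or 4, 5 to 9 and 10 or more regions.

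Place and strength were set beside this lean. Member regions at boundaries had a median difference of 1.14 points, those inside genes -1.47 and those outside -1.72, where regions of other genes gave 0.456, -0.531 and -0.822. Away from boundaries, the 396 members with a mean rank from 0 to 25 had a median of -0.814 (other genes -0.240) and the 293 from 25 to 50 had -2.21 (-1.21). The 163 from 50 to 75 had -3.88 (-1.52), and the 27 from 75 to 100 had -1.01 (-0.210). Without boundary regions 61 of 85 cluster genes had a lower KO mean, and the share at other genes was not computed. Without the 3 tRNA and snRNA clusters, 37 of 82 genes had both KO means below and 2 above. Among genes with 3 or more regions, 25.9% had both below and 15.2% both above. The share of place, strength or these 3 clusters in the lean was not tested.

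**Figure D5:**
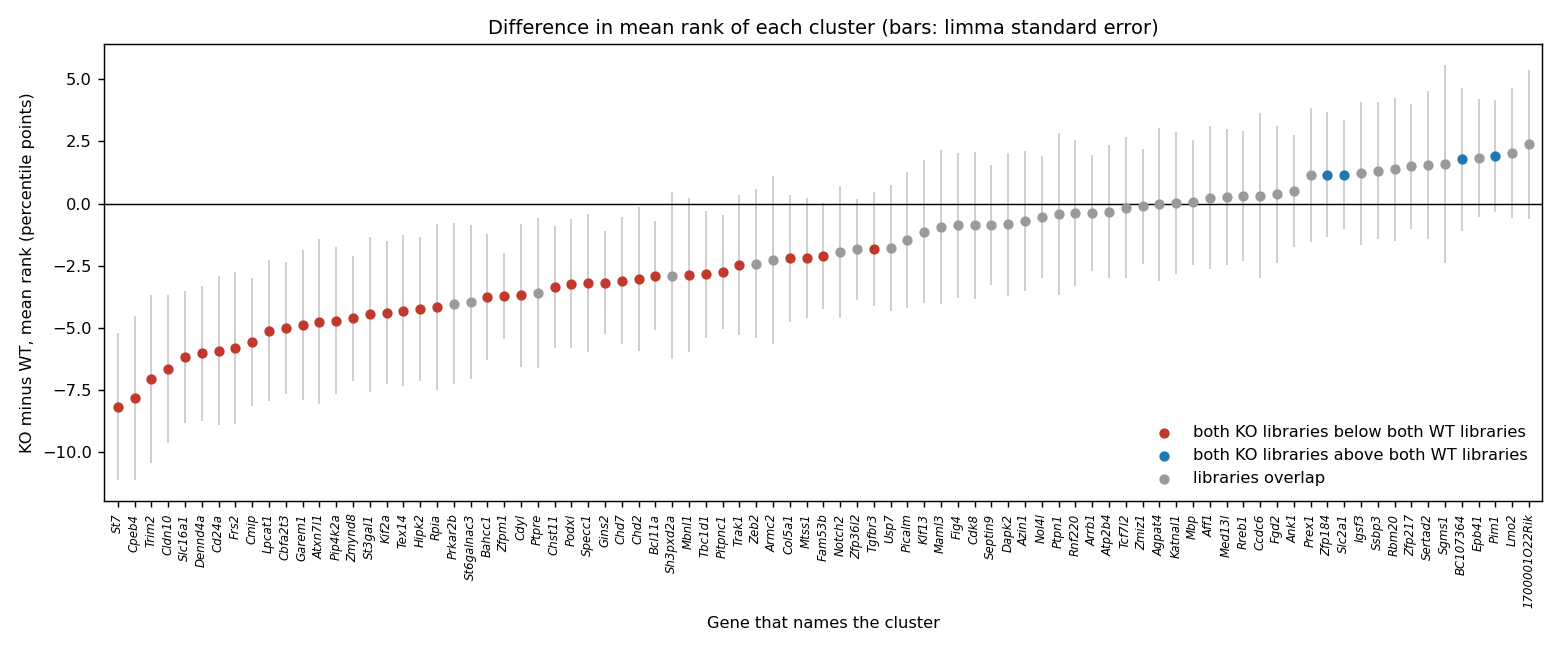
KO minus WT difference in mean rank (y axis, percentile points) of the 85 cluster genes (x axis), with bars for the limma standard error and colours for whether the 2 KO libraries lie below, above or among the 2 WT libraries. St7 is lowest at -8.16, the 38 red points lie below 0 and the 4 blue points above it, and 0 of 85 pass the adjusted test.

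The lowest differences among genes whose libraries did not overlap were at St7, Cpeb4, Trim2 and Cldn10. St7 had 10 regions (chromosome 6, 17680327 to 17777773) with mean ranks of 55.4 and 53.2 in WT and 45.3 and 47.0 in KO, a difference of -8.16 (SE 2.96; limma adjusted p = 0.453). Cpeb4, a translational repressor of red cell maturation, had 12 regions (chromosome 11, 31780758 to 31949898), 10 of them between genes. Its means were 55.8 and 56.9 in the WT and 45.4 and 51.6 in the KO libraries, a difference of -7.81 (SE 3.28; limma adjusted p = 0.485). At 6 of the 12 regions both KO libraries were below both WT libraries, and at 1 above. Over all shared regions these shares were 20.5% and 19.3%. Trim2, a ubiquitin ligase gene, had means of 34.6 and 41.8 in WT and 29.1 and 33.2 in KO. Cldn10, a tight junction gene, had 49.2, 46.3, 39.9 and 42.3. The highest such differences were far smaller, at Pim1 (1.91), BC107364 (1.79), Slc2a1 (1.16) and Zfp184 (1.16).

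Single regions with the lowest limma p among members, chosen after their values were seen, ran both ways. A region 78.7 kb from Podxl, a sialomucin gene (chromosome 6, 31642375 to 31642964), ranked at 3.80 and 1.52 in WT and 26.0 and 30.7 in KO, a difference of 25.7 (SE 4.16; limma adjusted p = 0.579). The Podxl cluster as a whole went the other way, with means of 35.0 and 34.0 in WT against 30.8 and 31.7 in KO. Both KO libraries were below both WT libraries at 7 of its 12 regions and above at 1. Over all shared regions these shares were 20.5% and 19.3%. A region 53.1 kb from Slc16a1, the lactate transporter MCT1 (chromosome 3, 104585399 to 104585891), ranked at 73.3 and 72.9 in WT and 48.9 in both KO libraries, a difference of -24.2 (SE 4.14; limma adjusted p = 0.579). A second region of Slc16a1, 5.82 kb from the gene, had 84.9 and 80.7 in WT and 61.3 and 70.6 in KO, and the cluster means were 37.6 and 36.0 against 31.6 and 29.7.

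Cluster genes also held regions that were not in every library, which the choice of members did not use. Of 1880 regions assigned to them, 918 (48.8%) lacked a peak in at least 1 library, close to 49.6% at other genes. Cluster genes had a peak in 1604 regions in WT replicate 1, 1147 in WT replicate 2, 1232 in Hemgn KO replicate 1 and 1431 in Hemgn KO replicate 2, in the order of list length. Peaks in both WT libraries and neither KO library were found at 32 of the 1880 regions (1.70%), against 2.14% of all regions near genes. The opposite case held for 25 (1.33%), against 1.37%. These shares are near those of all genes. They lay at 27 and 21 cluster genes, with at most 2 of a kind at any gene, as at Mbnl1 and Septin9 (2 WT-only) and Zmiz1 and Pip4k2a (2 KO-only). Med13l had the most regions of any kind, 42, of which 34 had a peak in WT replicate 1, 22 in WT replicate 2 and 24 in each KO library.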

How the data were processed

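ATAC-seq peak lists of 2 WT and 2 Hemgn KO fetal liver libraries were used, each called per library. The submitters' processing notes name MACS2 2.2.7.1, Bowtie2 2.3.5, Picard 2.21.4 and SAMtools 1.9. Which step each served, with what settings, and on which build is not given in the sources here. Each deposited list gives per peak a fold (a ratio over local background), a -log10 p-value, a -log10 q-value and a score, which is 10 times the deposited -log10 q without decimals. No list states read depth. Peak names show replicate numbers that differ from the sample titles, which decided each library's number.

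Peaks of chromosomes 1 to 19 sharing at least 1 bp were merged. A region's summit was that of its peak with the highest fold percentile within a list, and genes came from a RefSeq table of GRCm38.p6. Within 1 kb of a protein-coding boundary lay 41.1% of shared regions, and 7.40%, 7.35% and 7.01% after shifts of 5, 20 and 50 kb. The table's build was therefore used for gene names and places. It was also used to set the promoter windows and Mir1983 against the regions. Fold was ranked within each library over the shared regions. Ranks were tested by limma 3.58.1 in R 4.3.3 (two-sided, with mean trend, Benjamini-Hochberg adjustment, threshold 0.05), checked on simulated data. With 2 libraries against 2, an exact permutation test could not go below p = 0.333 and was not used. The labels do not call replicates separate litters, so p-values measure the spread between these libraries.

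The members and gene lists were chosen with earlier results of these data known. Genes were named by rule: the 12 with the most regions, up to 3 clusters per list, the 4 highest and 4 lowest KO minus WT differences without overlap between libraries, the densest and least dense, those wholly inside or outside the gene, and examples with exactly 10 and 9 regions. Other names, such as Podxl, Slc16a1, Gse1, Cdk8 and Ptpn1, were picked after their values were seen. Alternatives were -log10 q ranks, normal scores, a filter on low ranks, lists of equal length, other limits of the choice, a replicate block, a list length term and leaving out each library. The result of 1 gene list is not reported here.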

Additional observations from a re-analysis of the deposited data

How the results depend on the processing

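The number of cluster genes, 85 with 962 regions, depends on the limits: lists of equal length (33428 peaks) gave 30 genes with 338 regions, peaks with a -log10 q of at least 5 gave 39 with 429, a distance of 50 kb gave 31 with 335, 8 regions per gene gave 207 with 1977, and 12 per gene gave 31 with 404. Leaving out 1 library gave 86 to 127 genes and 980 to 1522 regions, with the highest numbers without WT replicate 2 (127 and 1522) and without Hemgn KO replicate 1 (124 and 1444). Regions past the limma threshold, 0 of 26855 in the analysis reported, were 12 by -log10 q ranks (10 KO higher, 1 of them a member, the Kif2a boundary region at chromosome 13, 107021423 to 107023094), 2 by normal scores, 1 in the upper 75% of ranks, 1 with lists of equal length and 0 to 1 with a library left out (1 without WT replicate 1). Genes past it were 0 in every alternative run. The median member difference of -1.43 was -1.86 by -log10 q, -1.91 in the upper 75% and -2.05 with equal lists, and ran from -1.86 to -0.948 with a library left out. The median member rank of 30.2 was 39.6 by -log10 q and 32.5 at 8 regions per gene. In alternatives chosen after seeing the data, cluster genes with both KO libraries below both WT libraries numbered 32 to 43 with all 4 libraries and those with both above 1 to 9. With a library left out, where 1 genotype has 1 library, genes without overlap numbered 46 to 54 KO lower and 11 to 20 KO higher. Genes with a lower KO mean numbered 58 to 67. The shares over all genes were not computed in these alternatives, so the counts have no background beside them and are descriptions. Whether the replicate numbers pair the samples is not known. The correlation of deviations was -0.128, and with 2 libraries a genotype it cannot decide this. A replicate block left 0 regions and 0 genes. In this balanced design a block cannot change the fitted difference, so the median of -1.43 was fixed in advance. The list length term set WT replicate 1 and Hemgn KO replicate 2 against the other libraries, and it also called 0 regions and 0 genes. A crossed replicate block is the same fit, so it adds no separate check. The cause of these shifts was not tested, and depth is unknown, so it cannot be said which weak peaks a shallower library would miss.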
